A study of Mus musculus with 6 samples.

Results

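Genes of the B, T and natural killer (NK) lineages were examined in fetal liver (FL) with and without Pogz. The set was 37 genes listed by their known function in lymphoid cells, 17 of the B lineage and 20 of the T and NK lineages. Of these, 36 were measured among the 18193 genes of the array with a probe set of their own, that is, all 17 B lineage genes and 19 T and NK genes. Lck, a T cell kinase, was not analysed here. Each gene was read from a probe set annotated to it alone, and where it had several, from the one with the highest mean signal over 6 arrays.

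Pogz encodes a zinc finger protein that binds heterochromatin protein 1. The genotypes were compared at E14.5 on a C57BL/6 congenic background, with 3 Pogz+/+ and 3 Pogz-/- livers, labelled as biological replicates. Each liver was minced and strained to single cells, without sorting for a cell type, and its RNA was hybridised to an Affymetrix mouse array. Pogz-/- embryos carried in all tissues an allele whose floxed exons, a part of the gene, had been deleted with a β-actin-cre transgene, and both groups were otherwise untreated.

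FL is the main site of blood formation at this stage and is where B lymphopoiesis begins. B cell precursors rearrange their immunoglobulin heavy chain genes with the RAG recombinase and display the chain with a surrogate light chain, under transcription factors such as EBF1 and PAX5 and the interleukin 7 receptor. T cells mature in the thymus, so T and NK genes in FL may be read from progenitors and from innate lymphoid and NK cells. Innate lymphoid and NK cells share much of the T cell signalling machinery. Which cells gave the signal was not measured here. In both lineages the antigen receptor signals through chains with immunoreceptor tyrosine-based activation motifs (ITAMs), such as CD79 in B cells and CD3 and CD247 in T and NK cells, and on through kinases such as ZAP70.

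Values are log2 of the deposited intensity, and log2 fold changes are Pogz-/- over Pogz+/+. A change was called at an adjusted p under 0.05 and at least 1.5-fold. Pogz+/+ replicate 1 stood apart, with a 3′ to 5′ signal ratio for the β-actin control of 52.3, where the next highest array had 6.63, and so each comparison was also made without it. Replicates 2 and 3 of Pogz+/+ lay above every Pogz-/- array in this ratio too, the lowest at 5.50 against at most 4.09. Its part in the results was not tested. Linear array medians spanned 36.0 to 54.3 among Pogz+/+ arrays and 29.7 to 31.6 among Pogz-/- arrays, and the median log2 fold change over all genes was −0.17. The 4 probe sets of Pogz had log2 fold changes from −0.59 to 2.17. No source used here places them inside or outside the deleted part of the gene, and they therefore did not check the genotype.

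The genes were split at the median signal of all genes. The mean log2 signal of 7 of the 17 B lineage genes (Igll1, Vpreb1, Cd79b, Cd22, Il7r, Rag1 and Blnk) and of 3 of the 19 T and NK genes (Zap70, Nkg7 and Lat) lay above that median, 5.67. Probe sets differ in how well they bind, so a position above or below it is not a level of expression relative to other genes. Of the 7 B lineage genes above it, 4 (Cd22, Il7r, Rag1 and Blnk) had a Pogz-/- mean below it and were placed there through their Pogz+/+ values. In Pogz+/+ the median B lineage gene was at 5.23 to 5.96 and the median T and NK gene at 4.51 to 5.19, against 4.98 to 5.25 and 3.94 to 4.58 in Pogz-/-. The B lineage ranges overlapped by one pair of arrays, and so did the T and NK ranges. Below the median a probe set may hold little signal of its gene, so members above and below it were kept apart.

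B lineage genes were mostly lower in Pogz-/- FL, but none passed the test over 6 arrays or without Pogz+/+ replicate 1. Of the 17, 15 had a negative log2 fold change over 6 arrays (median −0.67), where 60.4% of all genes did. The receptor genes Igll1 and Cd79b, the factors Ebf1, Spib and Pou2af1, the recombination genes Rag2 and Dntt, and the inhibitory receptor gene Cd22 had all 3 Pogz-/- arrays below all 3 Pogz+/+ arrays. In whole liver RNA, fewer cells of a type and less RNA per cell cannot be told apart.

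Over 6 arrays limma called 0 of 18193 genes (0%), and so 0 B lineage and 0 T and NK genes. At an unadjusted p under 0.05 there were 6 of 17 B lineage genes and 2 of 19 T and NK genes, beside 13.1% of all genes. When limma's trend and robust options were switched on, 22 genes were called, of which 0 were lymphoid genes of the set, and the methods' t-test called 0 of them. Without Pogz+/+ replicate 1, limma with trend and robust called 0 B lineage genes, with 5 of 17 at an unadjusted p under 0.05 beside 18.3% of all genes.

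The B cell receptor genes were described first. Igll1 and Vpreb1 encode the components of the surrogate light chain, and their annotated starts lie 5.27 kb apart on chromosome 16. In Pogz+/+ replicates 1, 2 and 3, and then in Pogz-/- replicates 1, 2 and 3, Igll1 had log2 signals of 6.79, 7.04 and 6.54, and 5.64, 6.52 and 6.07. Vpreb1 had log2 signals of 6.66, 6.79 and 6.46 in Pogz+/+ and 5.78, 6.47 and 5.92 in Pogz-/-. For both genes Pogz-/- replicate 2 was the highest of its group, and it reached the lowest Pogz+/+ array in Vpreb1 but stayed just under it in Igll1. The log2 fold change was −0.71 (SE 0.30) for Igll1 and −0.58 (SE 0.26) for Vpreb1, with adjusted p = 0.384 and 0.396 from limma. Their promoter windows, from 250 bases before to 50 after the annotated start, are shown because the genes are neighbours with like values in each array. Capitals mark CAGGTG or its reverse complement, an E-box of the kind bound by E proteins such as that encoded by Tcf3.

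Igll1 (chr16:16863936-16864235, minus strand): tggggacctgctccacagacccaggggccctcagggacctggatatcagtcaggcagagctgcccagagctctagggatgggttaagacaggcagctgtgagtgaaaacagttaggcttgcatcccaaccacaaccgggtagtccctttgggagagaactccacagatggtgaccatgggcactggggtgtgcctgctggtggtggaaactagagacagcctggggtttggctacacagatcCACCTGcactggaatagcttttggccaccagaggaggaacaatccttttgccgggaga
Vpreb1 (chr16:16869206-16869505, minus strand): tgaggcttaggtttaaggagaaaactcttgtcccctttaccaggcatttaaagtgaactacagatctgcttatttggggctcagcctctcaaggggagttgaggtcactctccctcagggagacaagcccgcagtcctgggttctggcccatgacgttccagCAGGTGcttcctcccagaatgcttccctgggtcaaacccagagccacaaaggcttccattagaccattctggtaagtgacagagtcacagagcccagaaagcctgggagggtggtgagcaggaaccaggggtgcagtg

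Both windows held this E-box, as did 20.2% of 32851 mouse promoter windows of the same length in RefSeq (GRCm38.p6). Such a match is a description of the letters and not a measured binding site. The signal of Vpreb1 may include that of Vpreb2, a near-identical gene.

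Cd79b, an ITAM chain of the B cell receptor, had log2 signals of 6.76, 6.26 and 6.19 in Pogz+/+ and 5.78, 5.99 and 5.59 in Pogz-/-. The genotypes did not overlap, and the gap between the nearest arrays was smaller than the range within either group (log2 fold change −0.62, SE 0.25; limma, adjusted p = 0.380). Its partner Cd79a was dim and scattered, from 1.46 to 5.67 in Pogz+/+ and from 2.38 to 3.33 in Pogz-/-. Vpreb3, a chaperone-like relative of the surrogate light chain, ranged from 4.13 to 6.44 in Pogz+/+ and from 5.16 to 5.36 in Pogz-/-, so the Pogz-/- arrays lay within the Pogz+/+ range. Its log2 fold change was 0.15 over 6 arrays and −0.33 without Pogz+/+ replicate 1.

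Among the B cell transcription factors, Ebf1, which commits progenitors to the B lineage, had log2 signals of 6.96, 5.68 and 5.59 in Pogz+/+ and 4.20, 4.19 and 4.12 in Pogz-/-. The 3 Pogz-/- arrays lay close together and more than 1 log2 unit below the nearest Pogz+/+ array. Its log2 fold change was −1.91 (SE 0.41) over 6 arrays and −1.47 (SE 0.49) without Pogz+/+ replicate 1, with adjusted p = 0.314 and 0.129 from limma. This held for the brightest of its 5 probe sets alone. The other 4 overlapped between genotypes, with log2 fold changes from −0.51 to 0.38.

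Spib, an Ets family factor, had log2 signals of 6.32, 6.39 and 5.23 in Pogz+/+ and 3.58, 4.82 and 4.98 in Pogz-/-. Pou2af1, a coactivator of octamer-binding factors in B cells, had 5.80, 5.68 and 5.19 in Pogz+/+ and 5.05, 4.84 and 4.70 in Pogz-/-. In both the genotypes were separate as deposited and overlapped after quantile normalization, and the log2 fold changes as deposited were −1.52 and −0.69 (limma, adjusted p = 0.357 and 0.366). Pax5, which maintains B cell identity, spread from 1.33 to 5.96 within Pogz+/+, with Pogz-/- at 3.04 to 4.20 inside that range.

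Of the recombination genes, Dntt, the polymerase that adds untemplated bases at joins, had log2 signals of 5.57, 4.27 and 3.80 in Pogz+/+ and 2.49, 3.20 and 1.27 in Pogz-/-. Rag2 had 4.59, 2.21 and 2.04 in Pogz+/+ and 1.42, 1.04 and 0.34 in Pogz-/-. Both were separate between genotypes and both were dim, so that in Rag2 a single array, Pogz+/+ replicate 1, lay more than 2 log2 units above the rest. The log2 fold change of Dntt was −2.22 (SE 0.68) and that of Rag2 −2.01 (SE 0.77), and −1.71 and −1.19 without that array (limma, adjusted p from 0.334 to 0.563). A second probe set of Dntt, of a type that can share its probes with other transcripts, was separate as well, with a log2 fold change of −2.71, while the third overlapped.

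Rag1, the other subunit of the recombinase, had 5.97, 6.04 and 6.58 in Pogz+/+ and 5.52, 5.28 and 6.00 in Pogz-/-. Pogz-/- replicate 3 overlapped the Pogz+/+ arrays, and the log2 fold change was −0.60 (SE 0.30; limma, adjusted p = 0.415).

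Of the signalling and surface genes, Cd22, a sialic acid binding receptor that dampens B cell receptor signals, had log2 signals of 7.05, 6.06 and 6.32 in Pogz+/+ and 5.65, 5.57 and 5.07 in Pogz-/-. The genotypes did not overlap, and Pogz+/+ replicate 1 was the highest array. Its log2 fold change was −1.05 (SE 0.34), or −0.76 (SE 0.33) without that array, with adjusted p = 0.347 and 0.250 from limma. Its second probe set was dim and overlapped. The Cd22 promoter window is shown because it was the only one among the 15 B lineage genes matched to RefSeq windows that held TCCC and GGGA separated by any 2 bases, a form of the EBF1 motif that reads the same on both strands and was found in 0.904% of all windows. Capitals mark this motif and the E-box.

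Cd22 (chr7:30878979-30879278, minus strand): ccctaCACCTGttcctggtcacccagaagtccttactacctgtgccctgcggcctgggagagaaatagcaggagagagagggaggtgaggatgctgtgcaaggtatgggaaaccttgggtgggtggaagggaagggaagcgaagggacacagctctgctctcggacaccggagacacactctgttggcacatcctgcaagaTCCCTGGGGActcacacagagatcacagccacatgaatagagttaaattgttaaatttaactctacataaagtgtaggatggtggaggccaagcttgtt

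The E-box was present in the windows of 6 of the 15 matched B lineage genes, which were Blnk, Cd22, Cd79a, Igll1, Rag1 and Vpreb1. Counted by window it was 6 of 16, beside 20.2% of all windows, and the difference was not tested.

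Il7r, the interleukin 7 receptor chain needed by early B cells, had log2 signals of 5.57, 6.44 and 6.69 in Pogz+/+ and 5.88, 5.49 and 5.32 in Pogz-/-. Here Pogz+/+ replicate 1 lay among the Pogz-/- arrays, unlike in most of the other B lineage genes. Without it the genotypes were separate and the log2 fold change was −1.00 (SE 0.30), with adjusted p = 0.0927 from limma over all genes. A dimmer second probe set of Il7r had a log2 fold change of 0.96 without that array. Blnk, the adaptor downstream of the B cell receptor, had 6.20, 5.84 and 6.24 in Pogz+/+ and 5.16, 5.86 and 5.70 in Pogz-/-, which overlapped in a single array of each genotype. Cd72, an inhibitory surface receptor, had a log2 fold change of −0.60 and Ms4a1, which encodes CD20, one of −0.63, both below the median signal and with overlapping arrays.

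**Figure D1:**
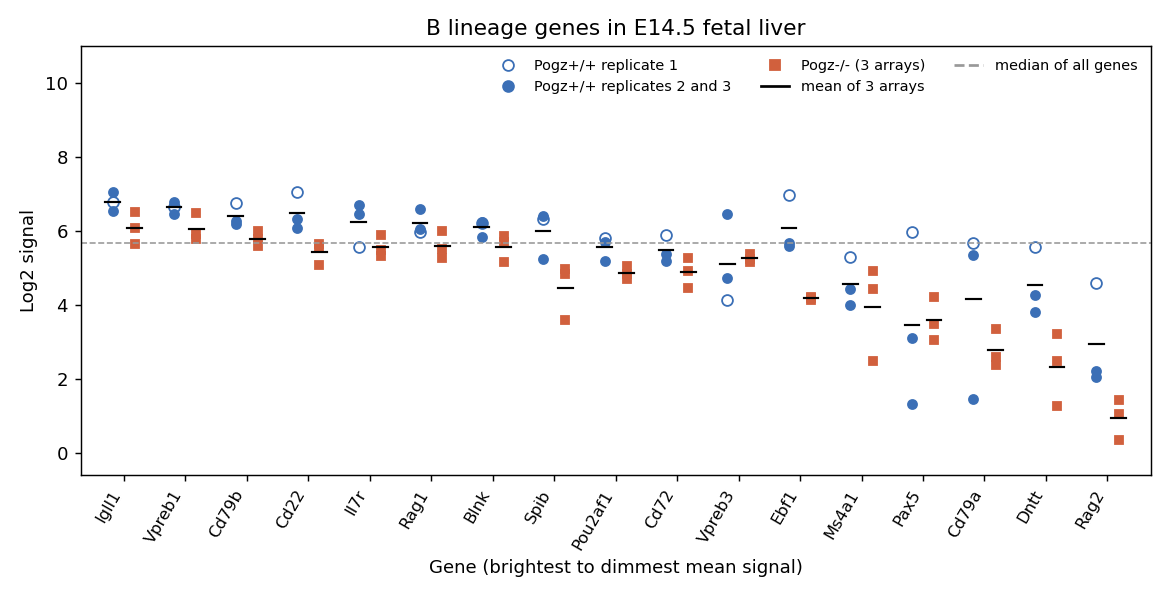
Log2 signal (vertical axis) of the 17 B lineage genes, from the brightest to the dimmest (horizontal axis), in each Pogz+/+ array (circles, replicate 1 open) and each Pogz-/- array (squares), with bars at the means of 3 arrays and a dashed line at 5.67, the median of all genes. The squares lie below all circles in 8 genes, and the spread between replicates grows toward the dim genes on the right.

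Counted together, 8 of 17 B lineage genes had all Pogz-/- arrays below all Pogz+/+ arrays and 0 had them above. Above the median signal this was 3 of 7 genes (Igll1, Cd79b and Cd22), where 17.2% of all such genes were separate downward and 19.1% upward, and Cd22 is among the genes placed there through Pogz+/+. Below the median it was 5 of 10 genes, where 15.4% of all such genes were separate downward and 2.50% upward. After quantile normalization 6 of 17 were separate downward, beside 12.4% of all genes, and without Pogz+/+ replicate 1 it was 10 of 17, beside 21.7%, with Rag1 and Il7r added. A separation of 3 arrays from 3 has a two-sided exact permutation p of 0.1 at the smallest, so no single gene can be called by it.

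Scaling changed the size of the B lineage values and not the count of negative genes. The median of −0.67 became −0.38 after quantile normalization and −0.21 after each array was centred on its median, and 15 of 17 genes were negative under each. All genes together were negative in 60.4%, 51.0% and 35.0% under the same settings. Relative to the median of all genes, which centring cannot change, the B lineage median was −0.50 in the deposited values, and it was −0.37 after quantile normalization. Of the 7 genes above the median signal 7 were negative under each setting (median −0.62 as deposited). Over all such genes 48.6% were negative as deposited, with a median of 0.017. Of these 7, 4 were placed there through their Pogz+/+ values, so the split was not independent of the genotype. Of the 10 genes below the median signal 8 were negative as deposited (median −1.05). Over all such genes 72.2% were negative, with a median of −0.55.

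T and NK genes did not share a direction in Pogz-/- FL. Of 19, 12 had a negative log2 fold change over 6 arrays as deposited (median −0.69) and 10 after quantile normalization or centring (medians −0.14 and −0.23). Relative to the median of all genes the T and NK median was −0.52 as deposited and −0.13 after quantile normalization. Of the 16 genes below the median signal 11 were negative as deposited (median −0.69). Over all such genes the median was −0.55 and 72.2% were negative. Without Pogz+/+ replicate 1, Zap70, the kinase that binds phosphorylated ITAMs, fell and Nkg7, a granule membrane protein of cytotoxic cells, rose. No other T or NK gene was called in that comparison, in which 315 of all genes rose (1.73%) and 182 fell (1.00%).

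Zap70 had log2 signals of 9.27, 8.04 and 8.10 in Pogz+/+ and 6.97, 6.81 and 7.43 in Pogz-/-. All Pogz-/- arrays lay below all Pogz+/+ arrays, with Pogz+/+ replicate 1 the highest. Its log2 fold change was −1.40 (SE 0.41) over 6 arrays and −1.00 (SE 0.20) without that array, with adjusted p = 0.331 and 0.0186 from limma. Among the 9096 genes above the median signal it had the 43rd most negative log2 fold change over 6 arrays. Within each array, Zap70 ranked between the percentiles 76.4 and 89.0 of all genes in Pogz+/+ and between 62.4 and 68.8 in Pogz-/-.

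A second probe set of Zap70, of the same type as the second of Dntt, had 6.05, 5.34 and 5.39 in Pogz+/+ and 4.53, 4.10 and 3.01 in Pogz-/-, again without overlap. The third was dim (mean 2.75) and overlapped, with log2 fold changes of −0.70 over 6 arrays and 0.42 without Pogz+/+ replicate 1. When the mean of the 3 probe sets was tested without Pogz+/+ replicate 1, the log2 fold change was −0.69 and Zap70 was not called (limma, adjusted p = 0.482). Over 6 arrays that mean gave −1.27. Where each of them lies in the gene is not given in the sources used here.

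Nkg7 had log2 signals of 7.38, 5.87 and 6.42 in Pogz+/+ and 7.34, 7.43 and 7.18 in Pogz-/-. Its Pogz-/- arrays lay close together, and Pogz+/+ replicate 1 lay among them while the other Pogz+/+ arrays lay below. The log2 fold change was 0.76 (SE 0.42) over 6 arrays and 1.17 (SE 0.23) without that array (limma, adjusted p = 0.438 and 0.0161). Like that of Zap70, the call of Nkg7 was made only with that array left out.

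Both calls kept an adjusted p under 0.05 in limma after quantile normalization (0.0213 for Zap70 and 0.0232 for Nkg7) and after centring (0.0478 and 0.00218). Both were lost with limma's plain settings (0.295 and 0.270), under which 0 of all genes were called. When 1 more array was left out, Zap70 stayed called without Pogz-/- replicate 3 (adjusted p = 0.0333) and was lost without Pogz+/+ replicate 2, Pogz+/+ replicate 3, Pogz-/- replicate 1 or Pogz-/- replicate 2 (limma, adjusted p = 0.128, 0.162, 0.0503 and 0.0705). Nkg7 stayed called without Pogz+/+ replicate 3 or Pogz-/- replicate 1 (0.0481 and 0.0464) and was lost without Pogz+/+ replicate 2, Pogz-/- replicate 2 or Pogz-/- replicate 3 (limma, adjusted p = 0.126, 0.0759 and 0.0667). Where a single Pogz+/+ array was left, it was assumed to vary like the others.

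The promoter windows of the genes that were called are shown side by side. Capitals mark the E-box. Of the 3 annotated starts of Zap70 in RefSeq, the one whose window held the most E-boxes, 2, is shown. The other windows of Zap70 held 0 and 1. The only window of Nkg7 held 0.

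Zap70 (chr1:36761548-36761847, plus strand): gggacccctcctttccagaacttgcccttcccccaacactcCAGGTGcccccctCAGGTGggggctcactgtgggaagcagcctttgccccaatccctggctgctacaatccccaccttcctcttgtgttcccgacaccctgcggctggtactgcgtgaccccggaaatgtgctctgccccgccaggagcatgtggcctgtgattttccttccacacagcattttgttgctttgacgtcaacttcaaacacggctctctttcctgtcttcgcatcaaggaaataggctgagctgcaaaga
Nkg7 (chr7:43436888-43437187, plus strand): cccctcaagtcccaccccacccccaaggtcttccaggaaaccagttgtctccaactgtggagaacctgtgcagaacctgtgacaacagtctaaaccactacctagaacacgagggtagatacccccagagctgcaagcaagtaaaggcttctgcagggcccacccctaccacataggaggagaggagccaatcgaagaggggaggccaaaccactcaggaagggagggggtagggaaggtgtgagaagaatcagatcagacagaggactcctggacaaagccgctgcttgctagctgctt

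Of the 15 T and NK genes matched to RefSeq windows, 9 held the E-box, namely Cd247, Cd3d, Cd3e, Cd3g, Cd5, Gzma, Prf1, Tbx21 and Zap70. These 9 included genes with values in both directions. Counted by window it was 10 of 17, beside 20.2% of all windows, and the difference was not tested.

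Lat, the adaptor that ZAP70 phosphorylates, had log2 signals of 6.26, 4.32 and 6.51 in Pogz+/+ and 5.86, 6.48 and 6.42 in Pogz-/-. The genotypes overlapped, and Pogz+/+ replicate 2 alone lay low. The log2 fold change was 0.56 (SE 0.63; limma, adjusted p = 0.682), and −0.13 without that array.

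Among the T cell receptor chains, Cd247, the zeta chain with its ITAMs, had log2 signals of 5.15, 5.37 and 5.04 in Pogz+/+ and 3.81, 4.23 and 3.94 in Pogz-/-. The arrays of each genotype lay close together and did not overlap, with a log2 fold change of −1.20 (SE 0.22 over 6 arrays) and adjusted p = 0.297 from limma. Its 3 other probe sets overlapped, with log2 fold changes of −0.32, 0.21 and 1.47, and the mean of all 4 gave 0.04. Cd3e (−0.11), Cd3g (−1.36) and Cd3d (0.59) overlapped between genotypes. Of these Cd3d was at 0.78 to 1.83 in every array but Pogz-/- replicate 1, where it was 4.03.

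**Figure D2:**
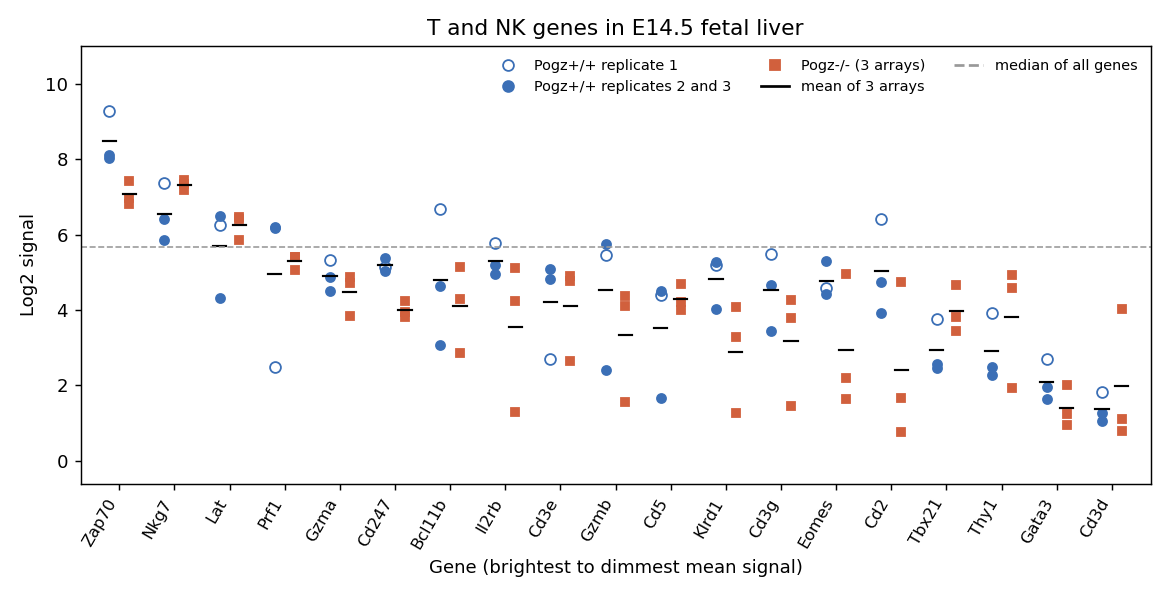
Log2 signal (vertical axis) of the 19 T and NK genes, from the brightest to the dimmest (horizontal axis), in each Pogz+/+ array (circles, replicate 1 open) and each Pogz-/- array (squares), with bars at the means of 3 arrays and a dashed line at 5.67, the median of all genes. In Zap70 and Cd247 the squares lie below all circles, while in Nkg7 they lie level with the open circle and above the filled ones.

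The T cell surface genes lay below the median signal. Cd2, an adhesion receptor, had the most negative log2 fold change of the set, −2.63 (SE 1.21; limma, adjusted p = 0.397), yet its arrays spread from 3.93 to 6.41 in Pogz+/+ and from 0.76 to 4.75 in Pogz-/- and overlapped. Cd5, a negative regulator of T cell receptor signals, had a log2 fold change of 0.78 and Thy1, a surface glycoprotein of T cells, one of 0.90, both with overlap. Of the transcription factors, Gata3 (−0.69), Bcl11b (−0.69) and Eomes (−1.83) had negative and Tbx21 (1.03), which encodes T-bet, a positive log2 fold change. The Pogz-/- arrays of Tbx21 lay at 3.45 to 4.66, above the Pogz+/+ replicates 2 and 3 at 2.58 and 2.47, with replicate 1 at 3.77 among them (limma, adjusted p = 0.405).

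Genes of cytotoxic granules and NK receptors other than Nkg7 were below the median signal. Gzma (−0.43) and Gzmb (−1.19), which encode granzymes, and Il2rb (−1.76) and Klrd1 (−1.95), a cytokine receptor chain and the CD94 receptor of NK cells, had overlapping arrays and adjusted p from 0.382 to 0.643 in limma. Prf1, the pore former perforin, was at 6.19 in both Pogz+/+ replicates 2 and 3 and at 2.50 in replicate 1, against 5.07 to 5.41 in Pogz-/-. Its log2 fold change was therefore 0.34 over 6 arrays and −0.89 without replicate 1 (limma, adjusted p = 0.892 and 0.168). A second probe set of Prf1 overlapped in both comparisons, with log2 fold changes of 0.44 and −0.16.

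Separate arrays were fewer among T and NK genes than among B lineage genes. As deposited, 2 of 19 were separate downward, Zap70 among the 3 above the median signal and Cd247 among the 16 below it, and 0 upward. The backgrounds are the shares of 17.2% and 15.4% given for the B lineage genes. After quantile normalization 2 were separate downward, beside 12.4% of all genes, and 1, Tbx21, upward, beside 11.6%. Without Pogz+/+ replicate 1, Prf1 joined the downward genes (3 of 19, beside 21.7% of all genes), and Nkg7 and Tbx21 were separate upward (2 of 19, beside 14.9%). The difference between the B and the T and NK counts was not tested.

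**Figure D3:**
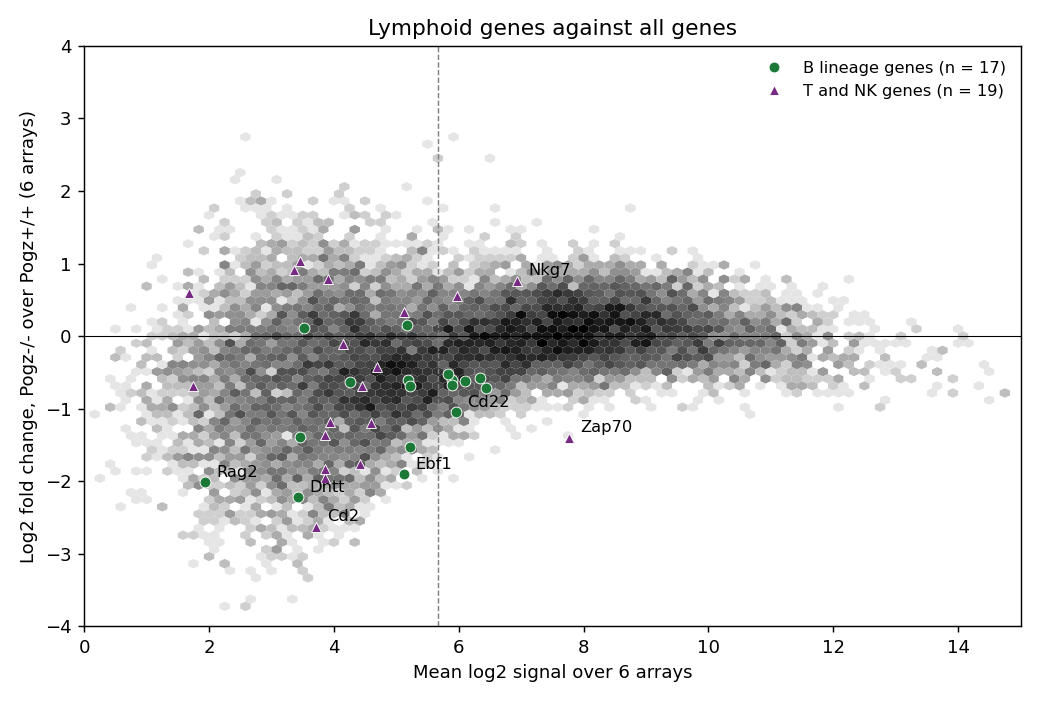
Log2 fold change over 6 arrays (vertical axis) against mean log2 signal (horizontal axis) for 18193 genes (grey, darker where more genes fall), with the 17 B lineage genes as circles and the 19 T and NK genes as triangles. Left of the dashed line at 5.67, the median signal, 72.2% of genes lie below 0, and most lymphoid genes are found there, while Zap70 lies at the lower edge of the brighter genes.

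The dependence on the probe set was examined for genes with more than 1. In Zap70 and Dntt, 2 of 3 probe sets were separate between genotypes. In Ebf1 it was 1 of 5, in Cd247 1 of 4 and in Cd22 and Igll1 1 of 2, in each case the brightest. Bcl11b, a T cell commitment factor, had log2 fold changes from −0.69 to 0.94 over its 4 probe sets. The dimmer probe set gave 0.17 in Il2rb, −0.14 in Eomes, 0.44 in Prf1, −0.84 in Pax5 and −2.34 in Ms4a1. Each of these overlapped between genotypes over 6 arrays.

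**Figure D4:**
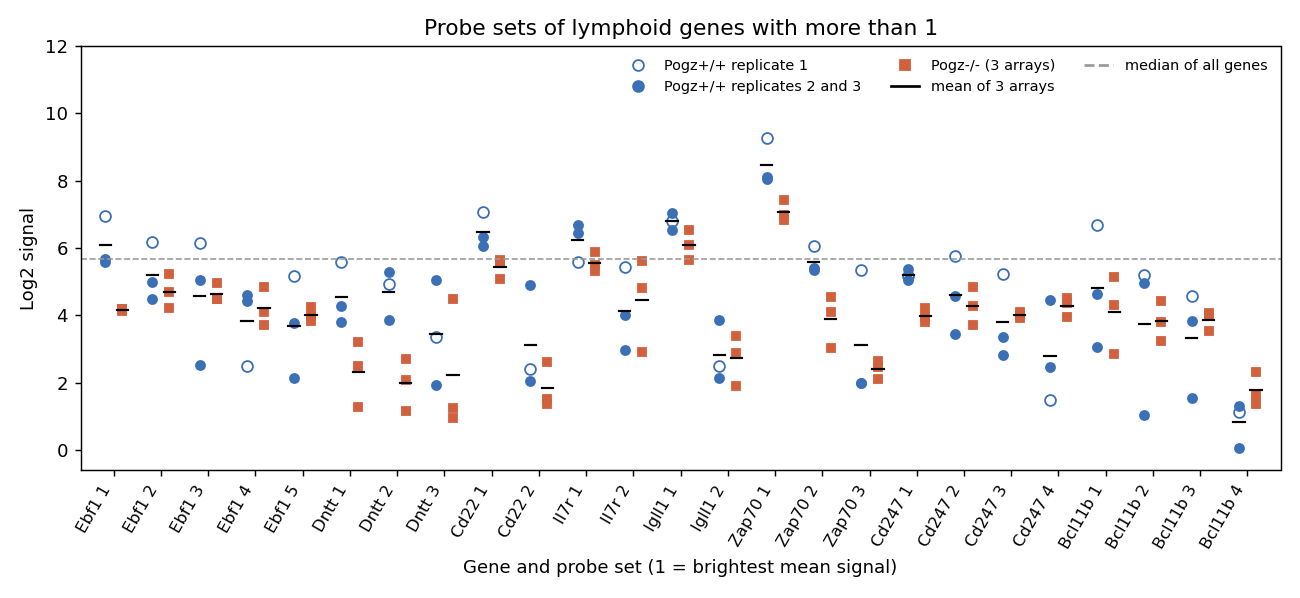
Log2 signal (vertical axis) of each probe set of 8 lymphoid genes, numbered from the brightest (horizontal axis), in the Pogz+/+ arrays (circles, replicate 1 open) and the Pogz-/- arrays (squares), with bars at the means of 3 arrays. The first 2 probe sets of Zap70 and of Dntt separate the genotypes, while in Ebf1 and Cd247 the first alone does.

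Other genes of these pathways were read from lists of known function. Of 22 other B lineage genes measured 14 (63.6%) had a negative log2 fold change over 6 arrays (median −0.46). Of 27 other T and NK genes 19 (70.4%) did (median −0.83), beside 60.4% of all genes. Only 9 of these B lineage genes and 3 of these T and NK genes lay above the median signal. Below it, 72.2% of all genes were negative. The medians were −0.0078 and −0.44 after quantile normalization, −0.26 and −0.38 without Pogz+/+ replicate 1, and −0.12 and 0.0049 with both changes. Without Pogz+/+ replicate 1, limma called 0 genes of either list, where 2.73% of all genes were called, with 4 and 3 at an unadjusted p under 0.05, where 18.3% of all genes were. Of 10 ITAM chains, kinases and adaptors in neither list, 0 were called and 2 had an unadjusted p under 0.05 there, and 3 had a negative log2 fold change over 6 arrays. Among 27 regulators of lymphoid progenitors and innate lymphoid cells, Jak1, the kinase that serves the interleukin 7 receptor, rose by 1.25 (SE 0.15) without Pogz+/+ replicate 1 (limma, adjusted p = 0.00191), and no other was called. Its log2 signals were 7.17, 8.15 and 7.90 in Pogz+/+ and 9.04, 9.49 and 9.30 in Pogz-/-, without overlap. Over 6 arrays its adjusted p in limma was 0.305.

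Marker lists of other cells in the tissue were set beside these values. The log2 of the summed intensity of the B lineage genes was 9.71 to 10.23 in Pogz+/+, above the 9.04 to 9.26 of Pogz-/-. That of the T and NK genes was 9.44 to 10.45, against 9.20 to 9.43, with the nearest arrays at 9.441 and 9.433. Zap70, the brightest of these genes in each Pogz+/+ array, weighs most on that sum. Of the 19 genes, 12 were lower and 7 higher in Pogz-/-. The 12 genes shared by leukocytes gave 12.74 to 13.03 and 12.75 to 12.81. The erythroid sum over 9 genes spanned 15.97 to 16.42 in Pogz+/+ and 15.48 to 15.57 in Pogz-/- (Slc4a1 fell). Its median log2 fold change was −0.17, and 3 of the 9 genes were higher. All 9 lay above the median signal, where the median over all genes was 0.017. The hepatoblast sum over 10 genes spanned 14.77 to 15.64 and 14.07 to 14.75 (Afp fell), with a median log2 fold change of −0.52 and 8 of 10 negative. The sum over 10 mast cell, basophil and eosinophil genes was lower in Pogz+/+, at 10.53 to 10.93 against 11.21 to 11.55 (Prg2 and Epx rose). Most of that list went the other way, with 7 of 10 genes negative (median −0.38) and 3 of them with all Pogz-/- arrays below all Pogz+/+ arrays. Sums over 16 granulocyte genes (Camp and Lcn2 rose) and over 15 macrophage genes (Lyz2 rose) overlapped between genotypes. These calls are from limma without Pogz+/+ replicate 1. After quantile normalization Camp, Prg2 and Lyz2 were still called there, while Lcn2, Epx, Slc4a1 and Afp were not. No marker had an intensity of 0 in any array, which does not show that each was detected, as detection calls were not used. The part of these lists in the lymphoid values was not tested.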

How the data were processed

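RNA (100 ng) from strained E14.5 FL cells was labelled with a 3′ IVT kit and hybridised to Affymetrix mouse arrays (3 Pogz+/+ and 3 Pogz-/-). The authors made the deposited intensity values in Affymetrix Expression Console, per the submitters' processing notes. No source used here gives its algorithm or version. The values are linear, and each array has a 2% trimmed mean of 150. Nothing else was normalized in the main comparison. Log2 was taken without a pseudocount. The 64 controls were left out, and of 45037 probe sets the 34945 annotated to 1 gene were used (932 name several genes and 9160 are unnamed here), 1 for each of 18193 genes by highest mean signal.

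Genotypes were compared with limma 3.58.1 under R 4.3.3, using lmFit and eBayes with two-sided tests and Benjamini-Hochberg adjustment over all genes, over 6 arrays, and with trend and robust without Pogz+/+ replicate 1. The second comparison leaves 2 Pogz+/+ arrays. The number of arrays limits the precision, and detection calls were not used. The calculations were tested on simulated data. Alternatives were quantile normalization, median centring, trend and robust, the methods' t-test, no fold threshold, signal filters, all probe sets tested, the mean over probe sets, a replicate block and leaving out each array. Non-overlapping arrays under quantile normalization and without replicate 1 were added after seeing the data. The genes, the lists and the tests were chosen with earlier results of these data known. All 37 genes were to be named. Values in every array are given for those above the median signal, called, or with non-overlapping arrays, and genes outside the set are named where called without Pogz+/+ replicate 1. Tbx21, Prf1 and others given by array outside this rule were chosen after their values were seen. Promoter windows are from RefSeq (GRCm38.p6), searched on both strands, and 30 of the 36 genes were matched.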

Additional observations from a re-analysis of the deposited data

How the results depend on the processing

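Over 6 arrays 0 B lineage and 0 T and NK genes were called under every alternative tried, which were quantile normalization, centring, trend and robust, the methods' t-test, no fold threshold, a signal filter, all probe sets, the replicate block and leaving out each array. Without Pogz+/+ replicate 1, testing only genes above the median signal called 1 B lineage gene (Il7r, adjusted p = 0.0457 in limma), where there had been 0. Il7r passed this filter only through its Pogz+/+ values (mean 6.23, against 5.56 in Pogz-/-). The filter was therefore not independent of the genotype, and this call is not taken as a result. The 2 T and NK calls became 0 with limma's plain settings and 0 to 1 when 1 more array was left out. With the replicate block, replicate numbers did not pair the arrays (r = 0.00784, −0.00444 and −0.00503 for same-numbered deviations), and the count of T and NK calls stayed at 2, and no other call changed.

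The B lineage median of −0.67 was −0.21 after centring and −1.05 for the members below the median signal. The T and NK median of −0.69 was −0.14 after quantile normalization, −0.23 after centring, −0.11 for means over probe sets and 0.56 for the members above the median signal. Some genes that were not called changed sign, and the cause was not tested. With means over probe sets, Pax5 was −0.36, Cd247 0.043 and Bcl11b 0.22. After quantile normalization and centring, Cd3e was 0.37 and 0.35 and Gzma 0.059 and 0.034. Without Pogz+/+ replicate 1 (trend and robust), Vpreb3 was −0.33, Bcl11b 0.25 and Prf1 −0.89. Leaving out 1 array at a time gave ranges of −0.96 to 1.36 for Pax5, −0.33 to 0.83 for Vpreb3, −1.12 to 0.10 for Ms4a1, −0.44 to 1.19 for Cd3d, −0.85 to 0.62 for Cd3e, −0.14 to 1.27 for Cd5, −1.56 to 0.25 for Bcl11b, −0.13 to 0.96 for Lat and −0.89 to 0.95 for Prf1.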

Other observations

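Antigen receptor gene segments are outside the set and were looked at after the data were seen. Of 43 probe sets for 20 immunoglobulin genes, 38 were below the median signal of genes. There were 33 (76.7%) with a negative log2 fold change over 6 arrays, beside 69.8% of all probe sets below that signal, and 9 (20.9%) had all Pogz-/- arrays below all Pogz+/+ arrays, beside 14.7%. In 0 they lay above, and 0 were called in limma without Pogz+/+ replicate 1. Of 17 probe sets for 10 T cell receptor genes, 16 were below the median signal of genes. Of the 17, 2 (11.8%) were separate downward and 3 (17.6%) upward. Among all probe sets below that signal 14.7% and 3.06% were, and above it 17.5% and 18.5%. Without Pogz+/+ replicate 1, 2 of the 17 were called. Of all probe sets 1.79% were called, with 0.19% below that signal and 4.28% above it. Both called probe sets were annotated to Trgv4, a variable segment of the T cell receptor gamma locus. The brighter, of the same type as the second of Dntt, lay above the median signal of genes (mean 5.93). It had log2 signals of 5.91, 4.43 and 4.36 in Pogz+/+ and 7.07, 6.83 and 6.96 in Pogz-/-, without overlap between genotypes. It rose by 2.56 (SE 0.28) without Pogz+/+ replicate 1, with adjusted p = 0.00134 from limma over probe sets, and its adjusted p over 6 arrays was 0.374. The other rose by 1.78 (SE 0.36; limma, adjusted p = 0.0274). The remaining probe set of Trgv4 was dim and overlapped (0.57; limma, adjusted p = 0.864). Segments of 1 locus are similar in sequence, so which segment gave the signal is not settled here.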
